A study of Homo sapiens with 4 samples.

Results

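The 10 genes described here are receptors of the tumour necrosis factor (TNF) family. They are TNFRSF12A, NGFR, TNFRSF1A, TNFRSF10A, TNFRSF10B, TNFRSF10D, TNFRSF11B, TNFRSF21, FAS and LTBR, taken by symbol out of 23228 genes in the count files. The genes were chosen by symbol with their values in the siRNA comparison in view, since TNFRSF12A and NGFR differed in opposite directions there. The siRNA values of the members are therefore given as a description, without a test. Of the 10 genes, 9 passed the filter on low counts and are among 13712 genes tested. TNFRSF11B had 0 counts in every library. In bulk RNA, fewer cells of a kind and less RNA per cell cannot be told apart.

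RNA-seq was done on A673 cells, a human Ewing sarcoma line, grown in DMEM with 10% fetal bovine serum. The cells received either a scrambled control siRNA or an siRNA against FAT4, an atypical cadherin, with the lipid reagent RNAiMAX, and RNA was taken after 24 h or 48 h. Each siRNA and time has 1 library, so no value has a replicate culture behind it. All groups share 1 cell line and the transfection itself, and no untransfected cells are described in the labels.

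TNF family receptors are membrane proteins with cysteine-rich outer repeats that bind trimeric ligands. Some carry a death domain inside the cell, through which adaptors such as TRADD and FADD can recruit kinases or caspases. Others have no death domain and bind TRAF adaptors, which lead to NF-κB and stress kinases. Decoy receptors bind ligand without passing on a death signal. NGFR, also called p75NTR, binds neurotrophins and is well known as a marker of neural crest cells.

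Total gene counts ranged from 15196813 to 22625833 per library, and the members held 11538 to 16990 counts per library in sum. The 0 counts of TNFRSF11B allow a level of at most 3 counts in a library, which is 0.133 to 0.197 CPM, counting error only. The targeted gene FAT4 was at 165 and 149 CPM, a read count scaled to library size by TMM, in control cells at 24 h and 48 h, and at 71.8 and 60.2 CPM with the FAT4 siRNA. Of 8 Ewing sarcoma markers, 7 were tested, and the 8 summed to 3734 to 4447 CPM, of which CCND1 alone gave 2690 to 3382 CPM. In the siRNA comparison 2 of the 7 rose and 3 fell, where edgeR called 25.9% of all tested genes. NKX2-2 fell most, by 0.85 on the log2 scale (edgeR adjusted p = 2.21e-13). DESeq2 called NKX2-2 alone. With a correction for GC content and length, NR0B1, called lower by edgeR, and LIPI, called higher, did not pass. CD99, a defining marker, was listed at 0 in every library, but it lies in the pseudoautosomal region that X and Y share, where reads can align to more than 1 place, so the 0 does not show that it was not expressed. A set of 12 leukocyte, endothelial and epithelial markers summed to 11.1 to 18.4 CPM, nearly all of it from the lysosomal gene CD68. PTPRC had at most 5 counts in any library, EPCAM at most 5, and CD3E and KRT5 had 0.

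The ends of 3 coding sequences are shown because the siRNA ratios of these libraries moved with base composition, and these members lie at opposite ends of it. Each is the last 90 coding bases, stop codon included, of the GENCODE release 29 transcript (GRCh38, sense strand), and runs of 5 or more G or C bases are in capitals. This part of each mRNA encodes the end of the receptor's tail inside the cell. The stretches come from chromosomes 16, 17 and 10 in turn.
TNFRSF12A: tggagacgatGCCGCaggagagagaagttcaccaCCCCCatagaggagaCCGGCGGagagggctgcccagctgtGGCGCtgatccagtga
NGFR: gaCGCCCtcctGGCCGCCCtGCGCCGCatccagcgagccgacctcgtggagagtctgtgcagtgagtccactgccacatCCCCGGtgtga
FAS: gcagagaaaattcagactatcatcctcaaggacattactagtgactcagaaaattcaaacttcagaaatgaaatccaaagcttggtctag
G and C made up 63.3% of the TNFRSF12A stretch, 68.9% of the NGFR stretch and 36.7% of the FAS stretch. The TNFRSF12A and NGFR stretches each hold 4 such runs and the FAS stretch holds 0. Over the whole transcripts the share was 64.2% for TNFRSF12A, 62.8% for NGFR and 39.1% for FAS.

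The TRAF-binding receptors without a death domain are TNFRSF12A and LTBR. TNFRSF12A, the TWEAK receptor, was at 32.0 CPM at 24 h and 13.6 at 48 h under control siRNA, against 71.6 at 24 h and 43.7 at 48 h under FAT4 siRNA. Both FAT4 siRNA libraries lay above both control libraries, and under each siRNA the later library was the lower. Its level under FAT4 siRNA divided by that under control siRNA gave 2.24 at 24 h, (exact 95% counting interval 2.03 to 2.47), and 3.21 at 48 h (2.78 to 3.70). These intervals cover counting error only, and those of TNFRSF12A at the 2 times do not overlap. In the fit over both times the log2 fold change was 1.40, and 99.6% of tested genes had a lower value. Of the 10595 genes averaging 5 CPM or more, 5 had a higher log2 ratio than TNFRSF12A at 24 h and 6 at 48 h, with 1 CPM added to each value.

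LTBR, the lymphotoxin beta receptor, was at 54.6 CPM at 24 h and 42.1 at 48 h under control siRNA, against 48.0 at 24 h and 43.9 at 48 h under FAT4 siRNA. The siRNA groups overlapped. The siRNA ratio was 0.878 (0.799 to 0.964) at 24 h and 1.04 (0.941 to 1.15) at 48 h, and the log2 fold change over both times was -0.07.

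**Figure D1:**
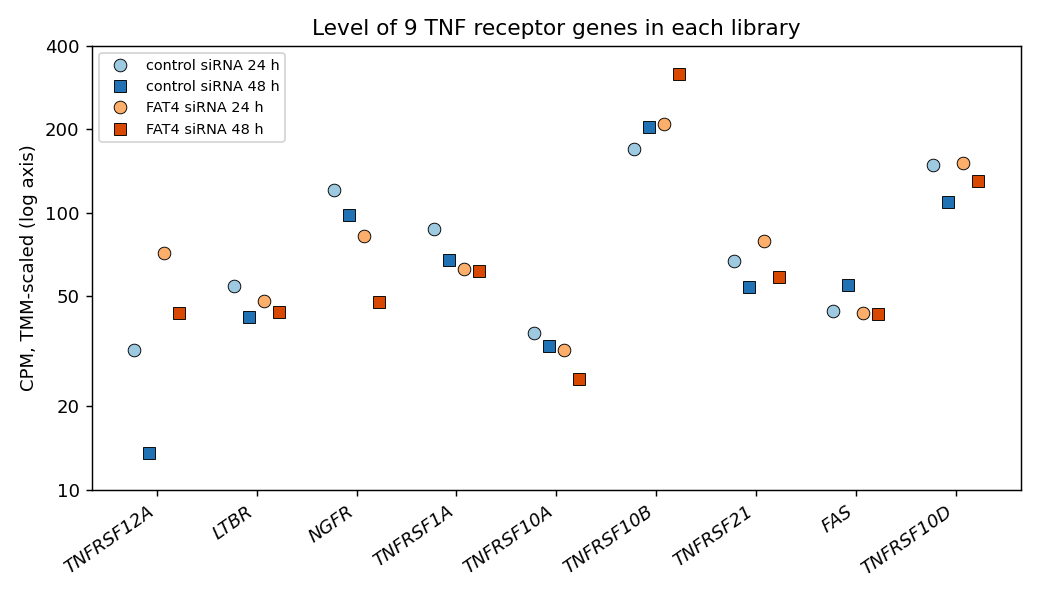
Level of each of the 9 detected TNF receptor genes in each of the 4 libraries, in TMM-scaled CPM on a log axis; each point is 1 library. TNFRSF12A is higher and NGFR lower in both FAT4 siRNA libraries than in both control libraries, and TNFRSF10B is highest in FAT4 siRNA at 48 h.

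The death domain receptors are NGFR, TNFRSF1A, TNFRSF10A, TNFRSF10B, TNFRSF21 and FAS. NGFR was at 121 CPM at 24 h and 98.0 at 48 h under control siRNA, against 82.5 at 24 h and 47.8 at 48 h under FAT4 siRNA. The order ran opposite to that of TNFRSF12A between the siRNAs and the same way between the times. The siRNA ratio of NGFR was 0.681 (0.636 to 0.729) at 24 h and 0.488 (0.448 to 0.531) at 48 h, and these intervals do not overlap either. Its log2 fold change over both times was -0.79, with 4.65% of tested genes lower. Per length, the ratio of TNFRSF12A to NGFR was 0.873 in control 24 h and 0.459 in control 48 h, against 2.87 and 3.02 with the FAT4 siRNA.

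TNFRSF10B, the TRAIL receptor also called DR5, was at 169.6 CPM at 24 h and 204 at 48 h under control siRNA, against 210.0 at 24 h and 316 at 48 h under FAT4 siRNA. The FAT4 siRNA 48 h library stood well above the other 3. Its siRNA ratio was 1.24 (1.18 to 1.30) at 24 h and 1.55 (1.49 to 1.62) at 48 h, with a log2 fold change over both times of 0.47. TNFRSF10A, the other death domain TRAIL receptor (DR4), went the other way. It was at 37.0 CPM at 24 h and 33.0 at 48 h under control siRNA, against 31.9 at 24 h and 25.1 at 48 h under FAT4 siRNA. Its siRNA ratio was 0.862 (0.768 to 0.966) at 24 h and 0.758 (0.668 to 0.860) at 48 h.

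TNFRSF1A, the main receptor for TNF itself, was at 87.1 CPM at 24 h and 67.5 at 48 h under control siRNA, against 62.6 at 24 h and 61.9 at 48 h under FAT4 siRNA. Control 24 h was the high library and the other 3 lay close together. The siRNA ratio of TNFRSF1A was 0.719 (0.664 to 0.778) at 24 h and 0.917 (0.844 to 0.997) at 48 h. FAS, the receptor for FAS ligand, was at 44.2 CPM at 24 h and 54.9 at 48 h under control siRNA, against 43.6 at 24 h and 43.3 at 48 h under FAT4 siRNA. Only control 48 h stood apart for FAS, and its siRNA ratio was 0.986 (0.891 to 1.09) at 24 h and 0.788 (0.715 to 0.868) at 48 h. TNFRSF21, also called DR6, was at 66.8 CPM at 24 h and 53.8 at 48 h under control siRNA, against 79.2 at 24 h and 58.6 at 48 h under FAT4 siRNA. The TNFRSF21 siRNA groups overlapped, with the 24 h library the higher under each siRNA.

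Of the decoy receptors, TNFRSF11B (osteoprotegerin, a secreted protein that binds RANK ligand) was not detectable at this depth. TNFRSF10D, which binds TRAIL and has a truncated death domain, was at 148 CPM at 24 h and 109.7 at 48 h under control siRNA, against 151 at 24 h and 130.2 at 48 h under FAT4 siRNA. The 24 h libraries were nearly level and both 48 h libraries were lower. The siRNA ratio of TNFRSF10D was 1.02 (0.966 to 1.08) at 24 h and 1.19 (1.12 to 1.26) at 48 h. Per length, the level of TNFRSF10B relative to TNFRSF10D was 0.976 at 24 h and 1.58 at 48 h under control siRNA, against 1.18 at 24 h and 2.07 at 48 h under FAT4 siRNA. With TNFRSF10A added to TNFRSF10B, the ratio to TNFRSF10D was 1.30, 1.98, 1.46 and 2.32 in that order of libraries. The TRAIL receptor genes resemble each other in sequence, so reads can align to more than 1 place. How such reads were counted was not given in the sources used here, so the counts of these genes are uncertain to that extent.

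**Figure D2:**
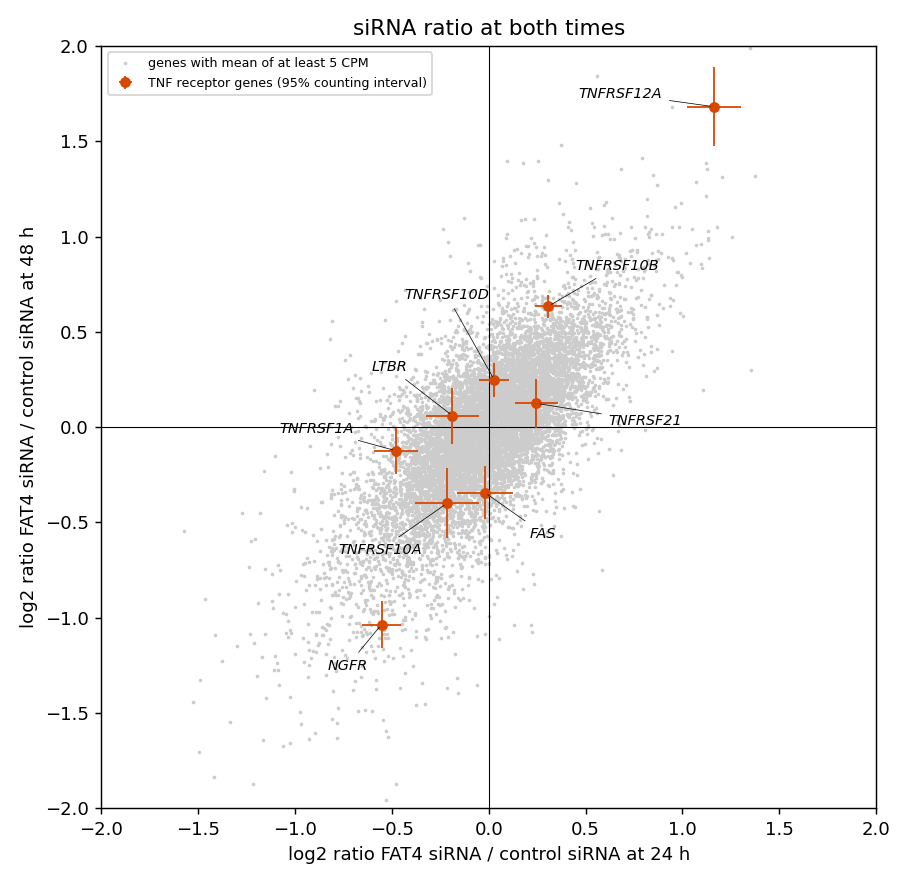
Log2 ratio of FAT4 siRNA to control siRNA at 24 h (x axis) and 48 h (y axis), plain CPM ratios with nothing added, for the 9 detected TNF receptor genes with 95% counting intervals; grey points are the 10595 genes averaging 5 CPM or more, of which 4 lie outside the axes. TNFRSF12A sits at the upper right edge, NGFR at the lower left, and LTBR is the only one of the 9 with ratios of opposite sign.

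In sum over the members, the siRNA groups were close in level, at 761 and 676 CPM in control and 780.5 and 770.3 CPM with the FAT4 siRNA, at 24 h and 48 h. The makeup of that sum differed more. TNFRSF12A made up 4.20% of it at 24 h and 2.01% at 48 h under control siRNA, against 9.17% at 24 h and 5.67% at 48 h under FAT4 siRNA. NGFR made up 15.9%, 14.5%, 10.6% and 6.21% in the same order, and TNFRSF10B 22.3%, 30.1%, 26.9% and 41.0%.

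**Figure D3:**
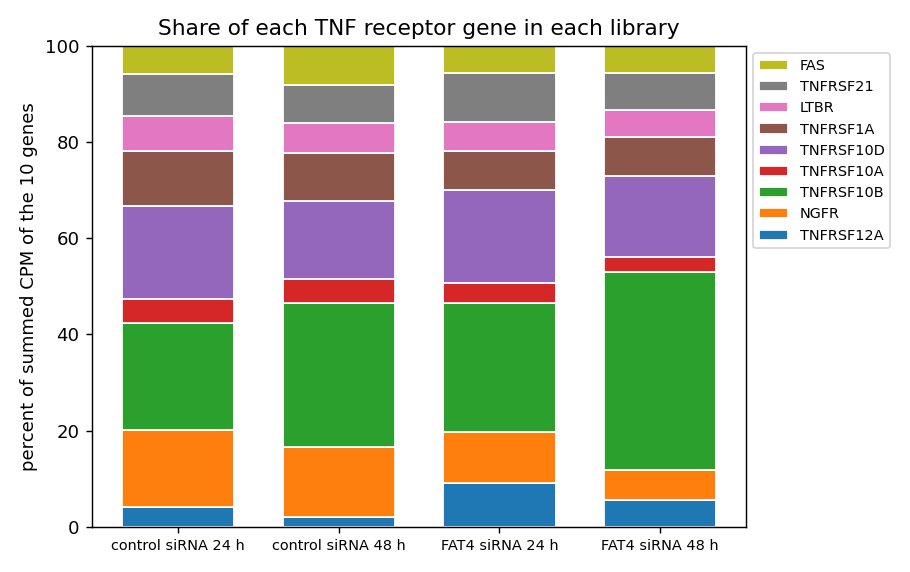
Share of each TNF receptor gene in the summed CPM of the 10 genes, in percent, 1 bar per library; TNFRSF11B is at 0. The TNFRSF10B share runs from 22.3% in control 24 h to 41.0% in FAT4 siRNA 48 h, while the NGFR share runs from 15.9% to 6.21%.

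Per kilobase of transcript, TNFRSF10B had the highest mean level of the family over the 4 libraries, 54.2 CPM per kb. It was followed by TNFRSF12A (38.9 CPM per kb), TNFRSF10D (38.1), TNFRSF1A (31.4), NGFR (25.6), LTBR (20.9), FAS (18.1), TNFRSF21 (18.0) and TNFRSF10A (11.7). Each range over the 4 libraries overlapped that of the next gene in this order, except that all 4 values of TNFRSF21 lay above those of TNFRSF10A (9.23 to 13.6 CPM per kb). TNFRSF12A had the widest range, from 13.2 to 69.3 CPM per kb. The means of the other detected members fell inside that range, apart from TNFRSF10A.

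Across all tested genes, edgeR called 25.9% in the siRNA comparison at an adjusted p under 0.05, with 11.9% higher and 14.1% lower. The median log2 fold change of the 9 tested members was -0.07, against -0.01 for all tested genes. These values describe members chosen with this contrast in view, and nothing is read from them.

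The siRNA ratios of these libraries moved with the GC content of transcripts, so the base composition of the members stands beside their ratios. Across 13112 genes with a matched transcript, the log2 siRNA ratio and GC content had a Spearman correlation of -0.528 at 24 h and -0.210 at 48 h, within single pairs of libraries and over genes that are not independent. Genes above the upper quartile of GC content, 57.2%, had medians of -0.24 at 24 h and -0.11 at 48 h on the same scale. TNFRSF12A, NGFR, LTBR (62.3%) and TNFRSF1A (57.5%) all belong there, and FAS lies below the lower quartile of 42.2%. After a correction for GC content and length, the log2 fold change of TNFRSF12A was 1.65 and that of NGFR -0.52. LTBR stood at 0.16 after it, TNFRSF1A at -0.18 and FAS at -0.34, against -0.07, -0.30 and -0.18 without it. The part of base composition in the remaining differences was not tested.

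Short words in the 3′ UTR had marked higher and lower genes in an earlier look at these same ratios, so they are no independent evidence. Neither TNFRSF12A nor NGFR held any of the 6 words searched in its 3′ UTR, nor did LTBR or FAS. TTGGACT, found in 11.3% of 12411 genes searched and tied to lower ratios (median log2 fold change -0.06 with it and -0.01 without), occurred in TNFRSF10A. AGCCTTA, found in 10.8% of genes and tied to higher ratios (0.08 with it and -0.03 without), occurred in TNFRSF10B and TNFRSF10D. AAGCCTT, in 15.2% of genes (0.05 with it and -0.03 without), occurred in TNFRSF21. GAGCCTT, in 11.9%, occurred in TNFRSF1A, and its medians were nearly the same (-0.00 with it and -0.02 without). TGGACTA and GCCTTAA occurred in 0 of the 9 members searched. The words overlap each other and were searched on the transcript strand only, and their part in any ratio was not tested.

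The later libraries were then set against the earlier ones, with siRNA as a term, to see which receptors changed with time after transfection, a contrast the choice of members did not use. TNFRSF12A, NGFR, TNFRSF21 and TNFRSF10D fell with time, and TNFRSF10B rose. In the edgeR fit, on the log2 scale, TNFRSF12A fell by 0.95 (SE 0.122, adjusted p = 6.94e-13). It was at 0.426 of its 24 h level in control cells (0.369 to 0.490) and at 0.610 with the FAT4 siRNA (0.553 to 0.672). NGFR fell by 0.53 (SE 0.0995, edgeR adjusted p = 2.49e-06), to 0.809 of its 24 h level in control cells (0.763 to 0.858) and to 0.579 with the FAT4 siRNA (0.528 to 0.635). For TNFRSF12A the lower ratio was that of the control cells, and for NGFR that of the FAT4 siRNA cells. Whether the time changes differed between the siRNAs was not tested, since a model with that term leaves no residual.

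TNFRSF10B rose by 0.43 (SE 0.0906, edgeR adjusted p = 4.72e-05), with a ratio of 1.20 (1.15 to 1.25) in control cells and a level 50.5% higher with the FAT4 siRNA (ratio interval 1.44 to 1.57). TNFRSF21 fell by 0.37 (SE 0.104, edgeR adjusted p = 0.00294), with ratios of 0.805 (0.744 to 0.871) and 0.740 (0.678 to 0.808). TNFRSF10D fell by 0.33 (SE 0.0942, edgeR adjusted p = 0.00398), with ratios of 0.740 (0.701 to 0.781) and 0.861 (0.810 to 0.914). Each of these genes moved the same way in both pairs of libraries.

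The remaining 4 did not pass the test. LTBR had a log2 fold change of -0.26 (edgeR adjusted p = 0.0773) and ratios of 0.771 in control cells and 0.914 with the FAT4 siRNA. TNFRSF1A had -0.20 (edgeR adjusted p = 0.141) with ratios of 0.775 and 0.989, and TNFRSF10A had -0.25 (edgeR adjusted p = 0.131) with ratios of 0.894 and 0.787. FAS had 0.16 (edgeR adjusted p = 0.314), with a ratio of 1.24 (1.14 to 1.36) in control cells and 0.993 (0.891 to 1.11) with the FAT4 siRNA.

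Of the 9 tested members, 1 rose and 4 fell with time, where 26.6% of all tested genes were called, 13.8% higher and 12.8% lower. With total counts as the scaling, 66.3% of called genes were higher, and with the GC and length correction 33.4%, against 51.9% in the fit with TMM. DESeq2 called 3 of the 5, without TNFRSF21 (adjusted p = 0.0718) and TNFRSF10D (adjusted p = 0.0692), and a model without the siRNA term called 0 of the 9. With the GC and length correction, LTBR, TNFRSF1A and TNFRSF10A also passed, as lower with time. That fit called more genes in general, 4517 of 13112, with 3009 of them lower. DESeq2 called 1176 of 12382 genes with time.

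**Figure D4:**
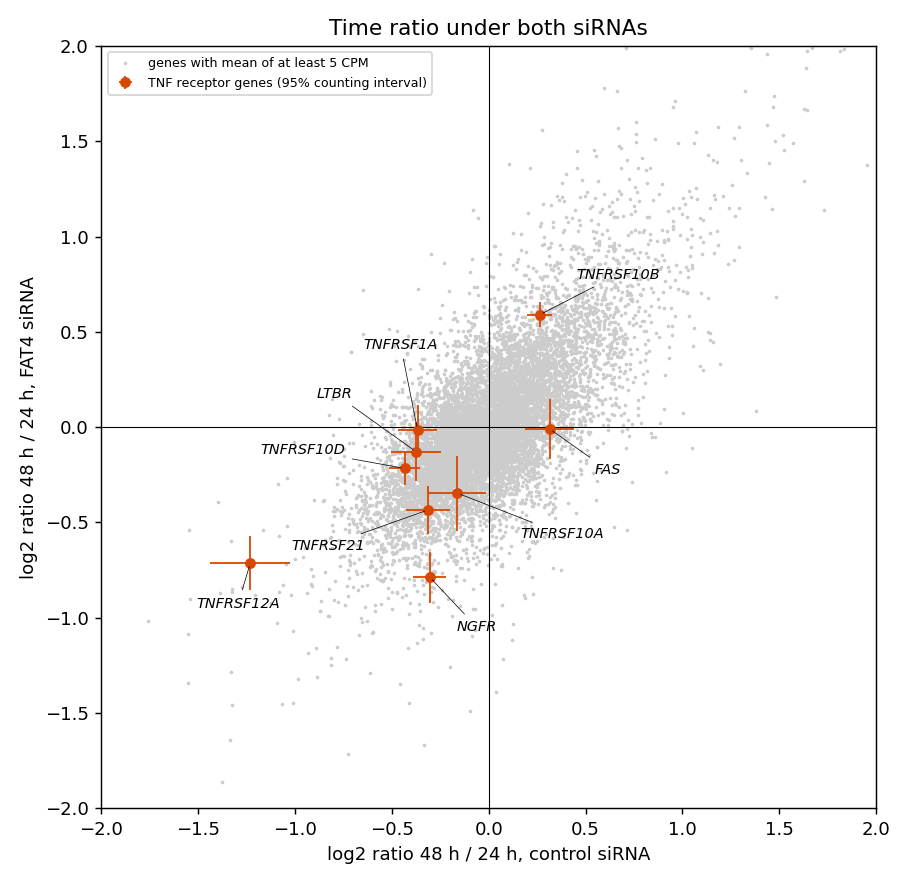
Log2 ratio of 48 h to 24 h in control siRNA cells (x axis) and FAT4 siRNA cells (y axis), plain CPM ratios, for the 9 detected TNF receptor genes with 95% counting intervals; grey points are the 10595 genes averaging 5 CPM or more, of which 34 lie outside the axes. TNFRSF12A lies farthest to the left and NGFR lowest among the members, and TNFRSF10B is the only member above 0 on both axes.

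Ligands of these receptors were near or below the floor in A673 cells. TNFSF12 (TWEAK), the ligand of TNFRSF12A, was at 0.716 CPM at 24 h and 1.09 at 48 h under control siRNA, against 1.08 at 24 h and 0.192 at 48 h under FAT4 siRNA, or 16, 22, 16 and 3 counts. TNFSF12 shares its locus with a read-through to TNFSF13, which makes its counts uncertain. The neurotrophins BDNF, NTF3 and NTF4, ligands of NGFR, had at most 2 counts. TNFSF10 (TRAIL) had 1 count in control 48 h and 0 in the other libraries, and TNF had 0 to 5 counts. LTA and LTB, the lymphotoxins, had at most 1 count, and FASLG, TNFSF11 and TNFSF14 had 0 in every library.

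Of 7 tested genes among the 13 neurotrophins and NGFR partners in the files, 4 fell with the FAT4 siRNA and 0 rose. Across all tested genes, 14.1% were called lower and 11.9% higher. The median log2 fold change was -0.68 in this list, against -0.01 for all tested genes. SORT1 (sortilin, which pairs with NGFR for proneurotrophins) fell by 0.87 (SE 0.0976, edgeR adjusted p = 1.07e-16), with control libraries at 112 and 160 CPM and the FAT4 siRNA library at 71.2 CPM at 24 h. LINGO1, a co-receptor of NGFR in the Nogo receptor complex, fell by 0.68 (SE 0.0979, edgeR adjusted p = 4.07e-10). RTN4R, the Nogo receptor, fell by 0.76 (SE 0.196, edgeR adjusted p = 0.00115). With time, SORT1 rose by 0.31 and the other 6 did not pass, where 26.6% of all tested genes were called. DESeq2 did not call SORT1 with time (0.29, adjusted p = 0.220), and the GC and length correction also called 2 partners lower with time. With the siRNA, DESeq2 and the fit with the GC and length correction each called SORT1 and LINGO1 only as lower, SORT1 at -0.86 and -0.82 and LINGO1 at -0.67 and -0.44. RTN4R (-0.29) did not pass with that correction, under which NGFRAP1, a protein that binds the NGFR tail, was called higher.

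Of 24 tested adaptors and kinases below the receptors, 5 rose and 3 fell with the siRNA, with a median of 0.00. Set beside the 11.9% of all tested genes called higher and 14.1% called lower, these counts are not read as particular to the adaptors. FADD, the adaptor that links death domains to caspase 8, fell by 0.46 (SE 0.0992, edgeR adjusted p = 6.22e-05). The kinase MAP3K7 (TAK1) rose by 0.38, its binding partner TAB2 by 0.41 and the TRAF-binding protein TANK by 0.43. TRAF6 (0.33) and BIRC2 (0.34) were the other adaptors called higher, and TRAF7 (-0.28) and MAP3K5 (-0.37) the others called lower. With the GC and length correction 3 were called higher and 2 lower, and with DESeq2 2 and 1, FADD among the lower in both. The adaptors TRADD, RIPK1, TRAF2 and TRAF3 had log2 fold changes of -0.09, 0.09, 0.03 and -0.08 and did not pass the test. With time, 4 of the 24 rose and 2 fell, where 13.8% of all tested genes were called higher and 12.8% lower. RIPK1 fell by 0.41 and DAXX by 0.29, while TANK rose by 0.45, BIRC2 by 0.42 and TRAF5 by 0.52. BIRC3, itself a target of NF-κB, also rose (edgeR adjusted p = 0.000130). DESeq2 kept BIRC2 alone of these 6 time calls, and the GC and length correction called 4 higher and 4 lower.

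Among 13 tested death effectors and inhibitors, 3 rose and 0 fell with the siRNA, with a median of 0.02, where 25.9% of all tested genes were called. XIAP, an inhibitor of caspases, rose by 0.38 (edgeR adjusted p = 0.00143). CASP8, the initiator caspase of death receptors, had a log2 fold change of 0.15, and its inhibitor CFLAR 0.03, and neither passed. DESeq2 and the GC and length correction also called 3 genes higher, XIAP among them, the latter fit with FAIM lower besides. With time 0 rose and 2 fell in this list, BID by 0.28 among them, where 26.6% of all tested genes were called. DESeq2 called 0 genes of the list with time, and the GC and length correction called 0 higher and 5 lower.

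Of 12 NF-κB factors and IKK subunits, 3 rose and 2 fell with time, where 26.6% of all tested genes were called. NFKB2, the p100 precursor of the non-canonical pathway, rose by 1.04 (SE 0.140, edgeR adjusted p = 8.54e-12), going from 15.6 to 25.6 CPM in control cells and from 13.2 to 34.8 CPM in FAT4 siRNA cells. RELB, its partner, rose by 0.97 (SE 0.239, edgeR adjusted p = 0.000535). NFKBIE rose by 0.53, and NFKBIB and IKBKB fell by 0.37 and 0.31. DESeq2 called NFKB2 alone with time, and the GC and length correction called 2 higher and 4 lower. With the siRNA, 0 of the 12 rose and 2 fell, where 25.9% of all tested genes were called. BCL3 fell by 0.82 and RELB by 0.60. Neither was called with the GC and length correction, under which NFKB2 and NFKBIB were called higher, and DESeq2 called 0 of the 12. The siRNA medians of these 12 and of the 20 tested NF-κB targets were -0.08 and -0.02.

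Across all tested genes, 13.8% were called higher and 12.8% lower with time, with a median log2 fold change of 0.01. Of the 20 tested NF-κB target genes, 7 rose and 3 fell with time, with a median of 0.30. That balance did not hold under other settings: DESeq2 called 1 higher (PTX3) and 2 lower (BCL2L1 and PLAU), and with only genes averaging 5 CPM or more the counts were 3 and 3. With the siRNA, where 11.9% of all tested genes were called higher and 14.1% lower, 4 rose and 2 fell. The 2 lower genes were TNFAIP2 and CXCL10, both averaging under 5 CPM. IL8, a neutrophil chemokine, rose by 1.28 with the siRNA (SE 0.212, edgeR adjusted p = 7.50e-08) and by 0.98 with time, and stood at 3.49, 4.22, 5.14 and 15.2 CPM in control 24 h, control 48 h, FAT4 siRNA 24 h and FAT4 siRNA 48 h. PTX3 rose by 0.54, PTGS2 (cyclooxygenase 2) by 0.52 and the deubiquitinase CYLD by 0.40 with the siRNA. The GC and length correction called 4 targets higher and 2 lower with the siRNA. IL8 (0.99) and PTX3 (0.52) were among the higher ones, while PTGS2 (0.37) and CYLD (0.32) did not pass. NFKBIA, the inhibitor that NF-κB itself induces, had a siRNA log2 fold change of 0.01 and a time log2 fold change of -0.17, and TNFAIP3 (A20) had -0.17 and 0.52, none past the test. With the siRNA, DESeq2 called IL8 alone among these targets, but it gave no adjusted p for TNFAIP2 or CXCL10. Both passed as lower with the GC and length correction (-1.67 and -1.78). With time, BCL2L1, an inhibitor of apoptosis, fell by 0.60 and was called by DESeq2 as well. The adhesion molecules ICAM1 (1.25) and VCAM1 (1.37) were called higher by edgeR but not by DESeq2 (adjusted p = 0.212 and 0.0839), and both averaged under 5 CPM.

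**Figure D5:**
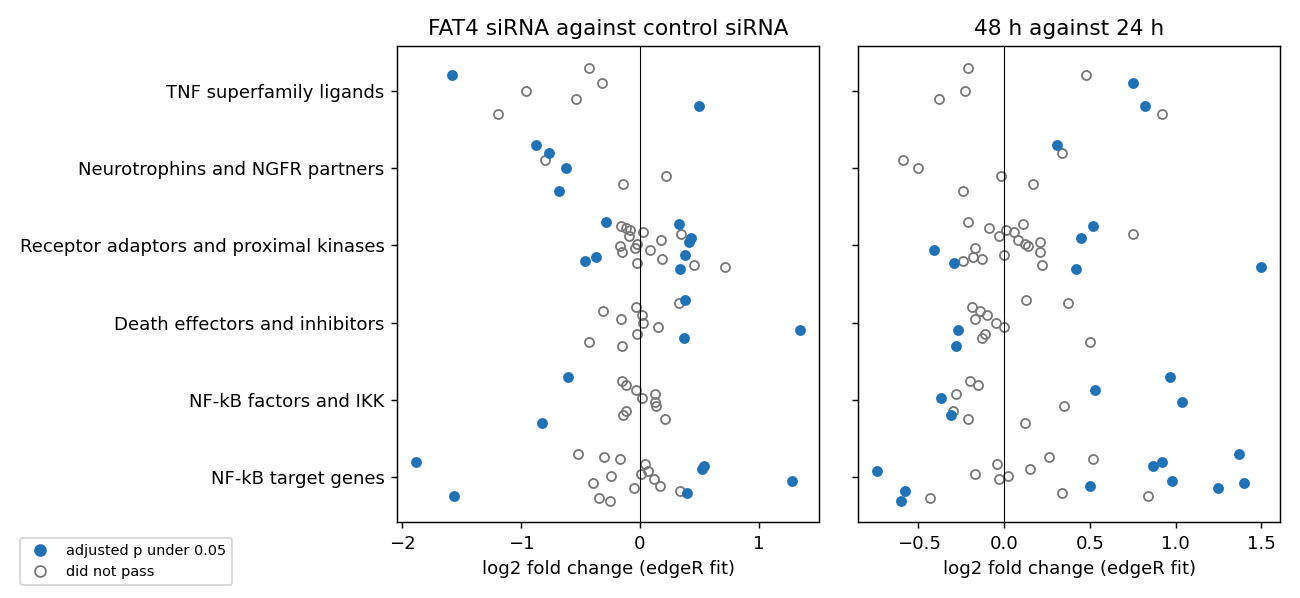
Log2 fold changes of the tested genes in 6 lists around the receptors, from the edgeR fit, for the siRNA comparison (left) and the time comparison (right); each point is 1 gene, and filled points passed an adjusted p under 0.05. The 4 filled points of the NGFR partners are on the lower side with the siRNA, and the filled NF-κB targets with time are 7 higher and 3 lower, against 1 and 2 with DESeq2.

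Genes whose levels over the 4 libraries ran most like those of TNFRSF12A and of NGFR were found by the distance between centred log2 profiles (CPM plus 1), among 10594 other genes averaging 5 CPM or more. For TNFRSF12A the nearest was IL6R, the interleukin 6 receptor, at a distance of 0.117 on the log2 scale. IL6R was at 6.94 CPM at 24 h and 2.39 at 48 h under control siRNA, against 17.7 at 24 h and 9.46 at 48 h under FAT4 siRNA. MRGPRF followed at 0.204, then NT5E, an ectonucleotidase, at 0.507, MIR17HG at 0.657 and FSTL1 at 0.661. Only IL6R and MRGPRF lay near the profile of TNFRSF12A, with a wide gap to the third gene.

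For NGFR the nearest genes were closer. The desmosome gene PKP2 lay at 0.0477 and TUBB3, the neuronal beta tubulin, at 0.0554, followed by UFC1 at 0.101, CYP27C1 at 0.119 and DUSP26 at 0.127. TUBB3 was at 228 CPM at 24 h and 188 at 48 h under control siRNA, against 161 at 24 h and 95.3 at 48 h under FAT4 siRNA. With 4 libraries, such likeness is a description of these samples.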

How the data were processed

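Per the submitters' processing notes, CASAVA 1.8.2, TopHat2, SAMtools, HTSeq and the build hg19 were used, with no order or settings. Per the labels' protocols, the libraries came from a stranded mRNA kit. The annotation, counting mode and strand setting were not given in the sources used here. The deposited values are raw read counts per gene, 1 library per file. Closing entries that name no gene (19.5% to 20.5% of gene, no-feature and ambiguous reads together had no feature and 0.772% to 0.804% were ambiguous) stayed out of library sizes.

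Counts were fitted with edgeR 4.0.16 in R 4.3.3 (TMM factors 0.973 to 1.03, filterByExpr with minimum count 10 and total 15) by quasi-likelihood with siRNA and time as additive terms over 4 libraries, two-sided, Benjamini-Hochberg at 0.05 over 13712 genes. This leaves 1 residual degree of freedom, so p-values say nothing of the spread between cultures. The prior degrees of freedom were infinite, so SE and p-values rest on a spread shared across genes and not on each gene's own. SE is the fold change over the root of the F statistic. The fit was also run on simulated data with set changes. The dispersions there were set rather than measured between cultures, so that run says nothing of the p-values in the real libraries. Pair ratios carry exact Clopper-Pearson intervals at 95%. Transcript length, GC content and UTRs come from GENCODE 29 (GRCh38), matched for 95.6% of tested genes, and no hg19 coordinates are given. DESeq2 1.42.0, other scalings, filters and pseudocounts and a GC correction (splines with 5 and 4 degrees of freedom) were alternatives.

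Members, gene lists and UTR words were chosen with earlier results of these data known. Named genes are all members, their ligands, core adaptors and NF-κB genes, up to 4 called genes per list by size of siRNA change (mean of at least 5 CPM, 1 sign at both times), and the 5 nearest profiles. RIPK1 and SORT1 with time, the called genes that this rule leaves out (such as BCL3, TNFAIP2, BIRC3 and BID), marker examples and the genes of the closing section were picked after their values were seen. A few genes of the lists enter the counts and medians but are not reported here by name.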

Additional observations from a re-analysis of the deposited data

Results flagged for a closer look

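LTBR had log2 ratios of opposite sign at the 2 times, with 1 CPM added: the FAT4 siRNA against control ratio was -0.18 at 24 h and 0.06 at 48 h. FAS had time ratios of opposite sign under the 2 siRNAs, 0.31 in control cells and -0.01 with the FAT4 siRNA. Neither difference was tested, as each rests on single libraries, and the counting intervals of LTBR at 48 h and of FAS with the FAT4 siRNA include a ratio of 1.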

How the results depend on the processing

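The fit with both terms already sets the siRNAs against each other within each time. The labels carry no replicate numbers, so there was no further pairing to fit. The siRNA comparison called 3555 genes, 1234 with DESeq2 and 0 without the time term (1706 at an unadjusted p under 0.05). The time comparison called 3646 of 13712 genes, and 50 without the siRNA term. DESeq2 called 1176 of 12382 with time, and the GC and length correction 4517 of 13112, 3009 of them lower. Of the 9 tested members, 5 were called with time, 3 with DESeq2, 8 with the GC and length correction and 0 without the siRNA term (1 at an unadjusted p under 0.05). The scalings and filters tried kept 5. Adjusted p over the 7 alternatives ran from 7.22e-15 to 0.536 for TNFRSF12A, 5.66e-09 to 0.569 for NGFR, 7.48e-06 to 0.429 for TNFRSF10B, 0.000111 to 0.372 for TNFRSF21 and 6.26e-05 to 0.404 for TNFRSF10D, the highest each time without the siRNA term. All 144 alternative values of the members' pair ratios stayed within counting error. Of 196 alternative list counts, 63 moved by more than 1.5 times. The causes were not tested.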

Other observations

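Of 19 other TNF receptor genes, 9 were tested and 0 were called with the siRNA by edgeR or DESeq2 (0 at an unadjusted p under 0.05 in edgeR). Across all tested genes, edgeR called 25.9% with the siRNA. CD40 rose with time by 0.55 (SE 0.141, edgeR adjusted p = 0.000989), at 19.1 and 24.2 CPM under control siRNA and 14.3 and 24.7 CPM under FAT4 siRNA, 24 h first. RELT fell by 0.42 (SE 0.133, edgeR adjusted p = 0.00959). Among 7 tested TNF ligands, EDA (ectodysplasin) rose by 0.50 with the siRNA (edgeR adjusted p = 0.0381) and by 0.82 with time, and TNFSF4 (OX40 ligand) fell by 1.58 with the siRNA (edgeR adjusted p = 0.0389) at 0.256 to 1.14 CPM. TNFSF13B (BAFF) rose by 0.75 with time (edgeR adjusted p = 0.000324). DESeq2 called 0 of these receptors and ligands in either comparison, but it gave no adjusted p for TNFSF4 with the siRNA.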
